A study of Mus musculus with 35 samples.

Results

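Histone H3 acetylated at lysine 27 (H3K27ac) was compared between mouse fibroblasts on day 3 of reprogramming, collected in bulk, and cells on day 6, collected after a sort for SSEA1. The data were 6 of 22 lists of ChIP-seq peaks from a series of 35 samples: 3 libraries of each day, with chromosomes 1 to 19 and X kept. Overlapping peaks of the 6 lists were merged into 66880 regions. A region with a peak in all 3 day 3 libraries and in no day 6 library was called lost, a region with a peak in all 3 day 6 libraries and in no day 3 library was called gained, and a region with a peak in all 6 was called common. There were 7015 lost, 186 gained and 9803 common regions, which were 10.5%, 0.278% and 14.7% of all merged regions, and 49876 regions fitted none of the 3 patterns.

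The cells of both days were mouse embryonic fibroblasts (MEFs) of mixed C57BL/6 x 129 strain. They carried a polycistronic cassette of Oct4 (Pou5f1), Klf4, Sox2 and Myc (OKSM) in the Col1a1 locus and the M2rtTA transactivator, which doxycycline switches on, in the Rosa26 locus. Both days were cultured in embryonic stem cell (ESC) medium with doxycycline at 1 µg/ml and ascorbic acid at 50 µg/ml, so neither day is a control without the factors. Day 3 cells were unsorted, whereas day 6 cells were labelled as sorted for SSEA+, which the design text calls SSEA1 positive. The day and the sort therefore cannot be told apart in any comparison here, nor can a change in each cell be told apart from a change in which cells were collected. MEFs without doxycycline, SSEA1-sorted day 9 cells and V6.5 ESCs grown on irradiated feeder cells served as other stages, with 2 H3K27ac libraries each. ChIP-seq of KLF4, 1 of the 4 factors in the cassette, was available from day 3, day 6, day 9 and ESCs, also with 2 libraries each. The design text calls the replicates biological. How many animals or cultures they came from is not given in the sources used here, and p-values measure only the spread between these libraries. The series addresses how KLF4 binding and enhancer contacts are organised while cells acquire pluripotency.

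H3K27ac is deposited by the acetyltransferases p300 and CBP and marks active promoters and active distal enhancers. During reprogramming, the fibroblast program of matrix, contractile and mesenchymal transcription factor genes is shut down, and epithelial genes such as Cdh1 and Epcam are switched on before the endogenous pluripotency network. SSEA1 is a carbohydrate antigen (Lewis X) that marks cells advancing towards pluripotency in mouse cultures, and cells that fail to advance largely lack it.

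Promoters of genes from both ends of the comparison are shown because a region within 1 kb of their start gained or lost its peak call. Each sequence is the 250 bases before a RefSeq gene start (assembly GRCm38.p6, which is mm10), 5′ to 3′ on the strand of the gene, with capitals marking matches to any of 5 motifs searched on both strands: AP-1 TGANTCA, KLF GGGNGTGG, the octamer ATGCAAAT, TEAD GGAATG and SOX ACAATG. The first set had a gained region at the promoter, namely Epcam, an epithelial adhesion molecule, Lsr, a lipoprotein receptor of tricellular junctions, and Pnpla3, a lipid droplet hydrolase. The capitals mark a KLF match in Epcam, an AP-1 and then a KLF match in Lsr, and an octamer match in Pnpla3.
Epcam (chr17:87635729-87635978, plus strand): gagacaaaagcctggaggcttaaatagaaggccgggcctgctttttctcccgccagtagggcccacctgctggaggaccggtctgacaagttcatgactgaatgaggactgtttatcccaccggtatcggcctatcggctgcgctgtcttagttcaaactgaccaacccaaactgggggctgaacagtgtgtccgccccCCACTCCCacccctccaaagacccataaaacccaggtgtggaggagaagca
Lsr (chr7:30973470-30973719, minus strand): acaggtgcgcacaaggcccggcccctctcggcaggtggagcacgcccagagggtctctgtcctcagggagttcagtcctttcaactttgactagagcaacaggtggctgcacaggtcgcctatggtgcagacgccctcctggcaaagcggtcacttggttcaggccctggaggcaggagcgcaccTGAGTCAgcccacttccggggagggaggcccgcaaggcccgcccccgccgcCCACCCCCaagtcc
Pnpla3 (chr15:84167566-84167815, plus strand): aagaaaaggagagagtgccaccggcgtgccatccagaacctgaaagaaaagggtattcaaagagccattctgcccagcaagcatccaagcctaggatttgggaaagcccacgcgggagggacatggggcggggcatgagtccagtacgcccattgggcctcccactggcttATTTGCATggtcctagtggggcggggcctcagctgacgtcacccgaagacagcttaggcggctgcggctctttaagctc
The second set had a lost region at the promoter, namely Col1a2, a chain of type I collagen, Zeb2, a repressor of epithelial genes, and Tpm1, an actin-binding tropomyosin. Only the Tpm1 sequence held a match, to the TEAD letters. Zeb2 and Tpm1 also held a common region within 1 kb of a start, so they kept promoter peaks on day 6. The Lsr and Col1a2 sequences lie wholly within the region that changed and that of Zeb2 mostly. Those of Pnpla3 and Tpm1 reach into it only at an edge, and that of Epcam lies outside it, so of the marked letters only those of Lsr lie where the call changed.
Col1a2 (chr6:4505368-4505617, plus strand): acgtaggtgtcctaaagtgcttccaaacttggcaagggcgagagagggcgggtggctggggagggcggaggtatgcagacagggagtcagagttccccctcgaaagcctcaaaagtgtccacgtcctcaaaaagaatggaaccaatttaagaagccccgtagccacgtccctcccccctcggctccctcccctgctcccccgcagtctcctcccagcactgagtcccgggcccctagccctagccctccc
Zeb2 (chr2:45117443-45117692, minus strand): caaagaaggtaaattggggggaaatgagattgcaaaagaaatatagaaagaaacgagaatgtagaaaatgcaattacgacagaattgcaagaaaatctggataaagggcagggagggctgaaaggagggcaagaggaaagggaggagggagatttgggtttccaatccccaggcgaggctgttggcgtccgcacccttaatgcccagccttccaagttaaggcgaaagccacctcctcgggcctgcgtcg
Tpm1 (chr9:67049214-67049463, minus strand): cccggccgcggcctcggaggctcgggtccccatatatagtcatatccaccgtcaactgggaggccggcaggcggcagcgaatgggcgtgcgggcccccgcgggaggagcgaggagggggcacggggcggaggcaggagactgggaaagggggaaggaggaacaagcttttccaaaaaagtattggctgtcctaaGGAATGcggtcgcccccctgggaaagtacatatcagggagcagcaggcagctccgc

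For the motif counts, KLF letters stood in 14 of 79 promoters (17.7%) at gained regions, in 148 of 691 (21.4%) at lost regions, in 20.8% at common regions and in 17.8% of all 21044 promoters of the same length. The 95% Wilson intervals of the lost and gained classes were 18.5% to 24.6% and 10.9% to 27.6%, and overlapped. AP-1 letters stood in 43 lost promoters (6.22%, interval 4.65% to 8.28%), in 1 gained promoter (1.27%, interval 0.224% to 6.83%), in 3.25% at common regions (interval 2.88% to 3.67%) and in 6.17% of all promoters. The lost and common intervals did not overlap, and the lost share was near that of all promoters. The octamer stood in 1.01%, 1.27% and 1.59% of lost, gained and all promoters, TEAD letters in 12.7%, 10.1% and 11.6%, and SOX letters in 6.08%, 5.06% and 8.84%. A match is a description of the letters and not a binding site.

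The number of peaks differed by day before any region was classified. In batch EA-3702, the list held 46723 peaks on day 3 and 22462 on day 6. In batch DG-3458, the 2 libraries held 50836 and 41471 on day 3 and 20783 and 17493 on day 6. The batch is a label of the samples, and both batches held both days. Every day 3 list was therefore longer than every day 6 list, and the sum of covered bases was 23.8 to 38.4 Mb on day 3 against 9.21 to 19.9 Mb on day 6. The lists give no read counts, so the depth of each library is unknown. A region without a peak is a region without a call in that list, and not a region shown to lack acetylation.

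To set the days side by side at equal list length, the classes were made again from the best 17493 peaks of each list by the authors' score. This gave 1454 lost (5.46% of 26615 regions), 661 gained (2.48%) and 7764 common regions (29.2%). Gained regions were thus 2.58% of all lost and gained regions in the whole lists and 31.3% at equal list length. The surplus of losses had the same direction in both, and its size depended on the length of the lists. Without 1 library the whole-list count of lost regions was above 1.5 times the full count only without day 3 DG-3458 library 2 (11240). The gained count passed 1.5 times without day 3 EA-3702 (360), day 6 DG-3458 library 1 (368), day 6 DG-3458 library 2 (432) or day 6 EA-3702 (286).

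Regions just inside and just outside the definition had similar strength. The median fold enrichment given by the authors was 3.76 for day 3 peaks of lost regions, 3.12 in the 7694 regions with a peak in 2 day 3 libraries and no day 6 library, and 4.35 in the 2893 regions with a peak in all 3 day 3 libraries and 1 day 6 library. For day 6 peaks it was 3.60 in gained regions, 3.18 in the 487 regions seen in 2 day 6 libraries alone, and 3.82 in the 238 regions with a peak in all 3 day 6 libraries and 1 day 3 library. Common regions were stronger and wider, with a median width of 1616 bp against 875 bp for lost and 716 bp for gained regions. Within each list, the median fold of common regions was 8.50, 7.32 and 7.95 on day 3 (EA-3702, DG-3458 library 1 and DG-3458 library 2, the order used for both days from here on) and 6.61, 5.58 and 5.56 on day 6. By the authors' score, the median percentile within a list was 85.4 to 88.3 for common regions on day 3 and 68.6 to 77.8 on day 6. It was 56.8, 58.5 and 45.3 for lost regions, near the middle of the day 3 lists, and 44.8, 36.4 and 28.6 for gained regions, below the middle of the day 6 lists.

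Lost regions lay mostly far from gene starts, and gained regions were more often at promoters. A promoter, taken as 1 kb to each side of a RefSeq start, was touched by 9.08% of lost, 36.1% of gained and 65.5% of common regions, against 17.3% of all merged regions. Regions moved by 1 Mb touched a promoter in 3.16%, 1.67% and 4.18% of cases. The median distance to the nearest start was 36969 bp for lost and 13013 bp for gained regions, and 75.7% and 53.9% of them lay over 10 kb from any start. Over all merged regions the median distance was 28556 bp and 67.7% lay over 10 kb away. A place far from a start was thus not particular to lost regions. With lists of equal length the promoter shares were 10.3%, 42.1% and 68.3%, against 35.5% of all regions. The gained share was then nearer to that of all regions, and the lost share was below it under both settings. The gained share was 23.9% without day 6 DG-3458 library 2 and 26.6% without day 6 DG-3458 library 1.

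Promoter shares also differed by day across all peaks of a library. These are the same 6 lists that gave the classes, so this is not a separate observation. The share of peaks at a promoter was 23.4%, 23.0% and 28.0% in the day 3 libraries and 40.0%, 48.8% and 54.1% in the day 6 libraries. Every day 6 library lay above every day 3 library (24.8% ± 2.77 against 47.6% ± 7.15, SD, n = 3 each, exact two-sided permutation p = 0.1). That is the smallest p that 3 against 3 allows, so no share of this kind could pass 0.05, and over the 7 measures tested this way the adjusted p was 0.117 for each of 6 (exact permutation). Within batches, the difference was 25.9 percentage points in DG-3458 and 16.6 in EA-3702. With equal lists the shares were 44.5% ± 1.24 and 51.3% ± 4.09 (SD, n = 3), so that most of the difference was gone, and the exact permutation p was again 0.1. The seventh measure, the median peak width, was 567, 417 and 411 bp on day 3 and 672, 382 and 410 bp on day 6, with overlapping groups (exact permutation p = 1.0).

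Day 6 peaks lay largely within the acetylation found later. The share of peaks within regions called in both day 9 libraries was 54.9%, 54.4% and 63.5% on day 3 and 93.6%, 92.8% and 97.6% on day 6. The groups did not overlap (exact permutation p = 0.1), and the difference was 36.2 points in DG-3458 and 38.7 in EA-3702. At equal list length the shares were 84.4% ± 1.05 and 96.7% ± 1.08 (SD, n = 3, exact permutation p = 0.1). Within ESC regions, the shares were 43.2%, 42.8% and 50.0% on day 3 and 69.6%, 76.4% and 82.5% on day 6. These also did not overlap, and at equal list length they were 69.4% ± 0.863 and 79.9% ± 3.11 (SD, n = 3, exact permutation p = 0.1). Within MEF regions, the shares were 59.8%, 60.2% and 67.3% on day 3 and 67.3%, 76.6% and 82.2% on day 6, where the highest day 3 and the lowest day 6 library nearly touched. In lists of equal length the order of the means turned, to 81.6% ± 0.857 on day 3 and 78.8% ± 4.68 on day 6 (SD, n = 3, exact permutation p = 0.4). So the share in day 9 and ESC regions was higher on day 6 under both settings, and the share in MEF regions was not.

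**Figure D1:**
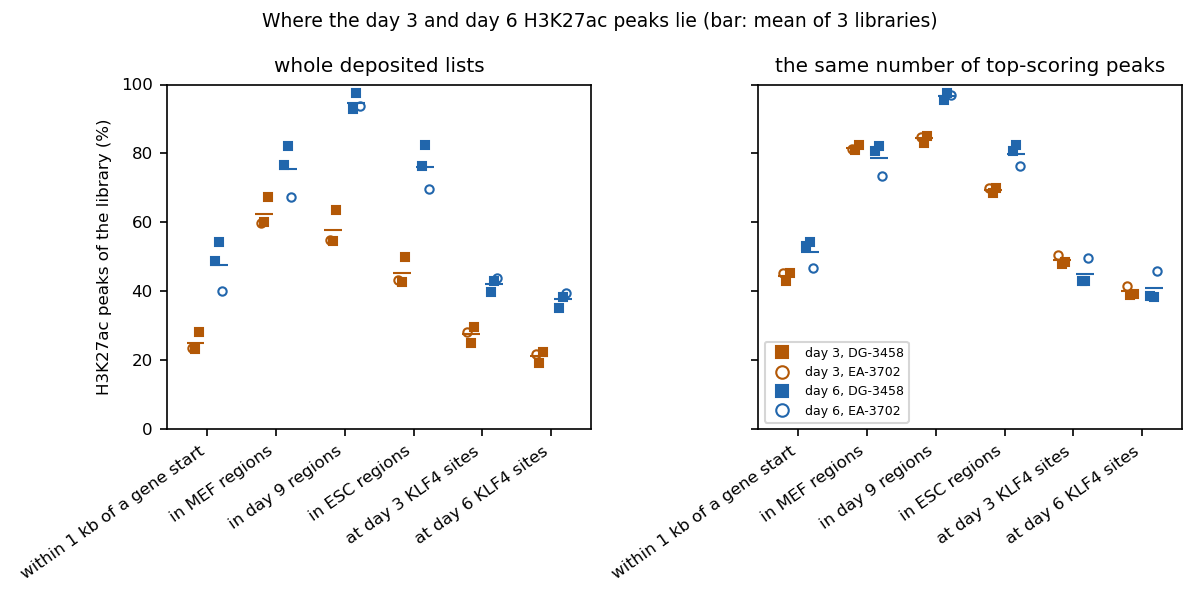
Share of the H3K27ac peaks of each library (percent, vertical axis) that lay within 1 kb of a gene start, in MEF, day 9 or ESC H3K27ac regions, or at KLF4 sites, for whole lists (left) and for the same number of top peaks (right). Squares (DG-3458) and circles (EA-3702) are libraries and short bars are means of 3; the day 9 share is higher in every day 6 library under both settings, whereas the MEF shares overlap at equal list length.

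The classes differed in what the same regions held at other stages, with values given for both libraries of each stage. Lost regions had a peak in MEFs in 66.8% and 67.2% of cases, on day 9 in 38.5% and 40.3%, and in ESCs in 28.9% and 28.8%. Gained regions had a peak in MEFs in 38.2% and 38.2%, on day 9 in 98.9% and 99.5%, and in ESCs in 71.5% and 67.2%. Common regions were at 92.2% or above in every one of these libraries. Over all merged regions the shares were 51.7% and 51.8% in MEFs, 46.4% and 47.7% on day 9, and 38.0% and 37.5% in ESCs. MEF and ESC libraries were all from batch DG-3458 and day 9 libraries from EA-3702. Stage and batch therefore cannot be told apart where day 9 is compared with MEFs or ESCs, which share a batch. In classes from lists of equal length, lost regions were at 76.3%, 54.0% and 32.0% in MEFs, day 9 and ESCs, and gained regions at 62.0%, 100.0% and 81.8%, each the mean of 2 libraries. All regions of that setting were at 69.7%, 81.3% and 63.7%, so the MEF share of lost regions was near that of all regions, and the day 9 and ESC shares were lower at lost and higher at gained regions.

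Following each region through all stages gave 8 possible histories for the 5301 lost regions (75.6%) whose 2 libraries agreed at every stage. The most frequent, 2007 regions (28.6% of all lost), had peaks in MEFs and on day 3 and none on day 6, day 9 or in ESCs. A further 909 (13.0%) had a peak on day 3 alone. In 746 (10.6%) the mark was called in MEFs, day 3, day 9 and ESCs but in no day 6 library, and 456 (6.50%) were called on day 3 and day 9 only. Gained regions were most often absent from MEFs and present on day 9 and in ESCs (66 regions, 35.5%). Another 44 (23.7%) were called in MEFs, on day 9 and in ESCs and missed only on day 3, and 30 (16.1%) were called on day 6 and day 9 alone. Regions called at the stages on both sides of a day without a call form part of both classes.

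**Figure D2:**
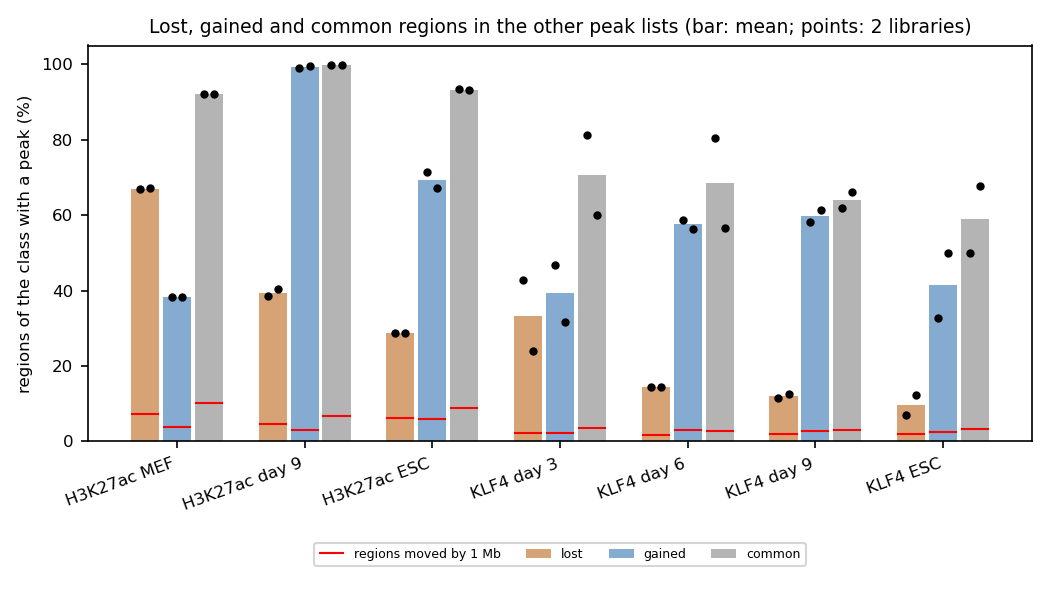
Percent of lost, gained and common regions (vertical axis) that held a peak in the 2 libraries of each other H3K27ac stage and of each KLF4 stage. Points are libraries, bars their means and red lines the mean after moving the regions by 1 Mb; lost regions are highest in MEFs, gained regions reach 98.9% and 99.5% on day 9, and common regions are at 92.2% or above in all 6 H3K27ac libraries.

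KLF4 was found at lost regions more often on day 3 than on day 6, and at gained regions more often on day 6. Each day had 1 KLF4 library in batch EA-3702 and 1 in DG-4040, and values are given in that order. At lost regions, a KLF4 peak was found in 42.7% and 24.0% on day 3 and in 14.3% and 14.5% on day 6. At gained regions it was found in 46.8% and 31.7% on day 3 and in 58.6% and 56.5% on day 6. Both batches gave the same direction, with shares that fell by 28.4 and fell by 9.45 points at lost regions and rose by 11.8 and 24.7 points at gained regions. The mean rise at gained regions was 18.3 points, and 9.62 points in the classes made without day 6 EA-3702. At common regions the shares were 81.3% and 60.1% on day 3 and 80.5% and 56.6% on day 6, and over all merged regions 32.1% and 20.8% against 22.9% and 19.4%. With 2 libraries a day no test was made.

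The KLF4 pattern was similar at equal list length, where lost regions went from 66.4% to 22.8% in EA-3702 and from 41.4% to 21.5% in DG-4040. Gained regions went from 61.9% to 68.7% and from 40.5% to 56.4%, and all regions from 58.8% to 48.0% and from 40.1% to 37.9%. On day 3 the gained regions were thus near the share of all regions. In whole lists, KLF4 peaks later stood at 11.5% and 12.5% of lost and at 58.1% and 61.3% of gained regions on day 9. Common regions were then at 61.8% and 66.3%, and all merged regions at 19.5% and 20.8%. Lost regions that were called again on day 9 also held more KLF4. Among the 2274 lost regions (32.4%) with a peak in both day 9 libraries, 31.2% ± 0.902 (SD, n = 2 libraries) had KLF4 on day 6 and 49.5% ± 0.249 had H3K27ac in ESCs. Among the 3763 (53.6%) with a peak in no day 9 library, 4.36% had KLF4 on day 6 in both libraries and 15.2% ± 0.0188 had H3K27ac in ESCs. The promoter shares of these subsets were 16.3% and 4.21%. KLF4 and acetylation peaks both gather at promoters, and the part of position in this difference was not tested.

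**Figure D3:**
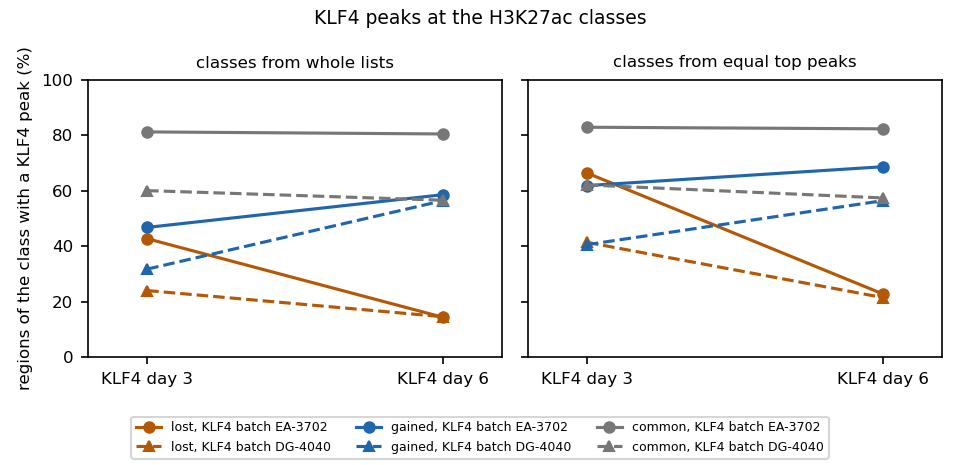
Percent of lost, gained and common regions (vertical axis) with a KLF4 peak on day 3 and day 6, with a line for each KLF4 batch, for classes from whole lists (left) and from the same number of top peaks (right). The lines fall at lost regions and rise at gained regions in both EA-3702 and DG-4040 under both settings.

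Across all peaks, the share at day 3 KLF4 sites was 28.1%, 24.9% and 29.4% in the day 3 H3K27ac libraries and 43.7%, 39.6% and 42.9% in the day 6 libraries. The share at day 6 KLF4 sites was 21.0% ± 1.77 (SD, n = 3) on day 3, where the highest library was at 22.4%, and 39.5%, 35.2% and 38.4% on day 6. Both were higher in every day 6 library (exact permutation p = 0.1 each). Neither difference held at equal list length: the shares were 48.9% ± 1.33 and 45.1% ± 3.78 at day 3 sites (exact permutation p = 0.3) and 39.9% ± 1.44 and 40.9% ± 4.17 at day 6 sites (exact permutation p = 1.0, SD, n = 3). With the top 50% of each list, which leaves the day 3 lists longer, the differences were 10.8 and 16.7 points (exact permutation p = 0.1 each), and those for promoters and MEF regions 25.6 and 12.6 points. At equal number, the stronger peaks of both days thus had KLF4 sites at shares whose groups overlapped.

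Genes of the fibroblast and mesenchymal group carried many lost regions and no gained region. Of 26 genes in this list, 18 had a lost region within the gene or 2.5 kb of it, 44 regions in all, against 13% of all 21627 protein-coding genes. At the promoter, 6 of the 16 genes with a start in the table had a lost region (37.5%, against 3.58% of 17273 genes). For Zeb2 a common region stood at the promoter as well. The number of peaks in these genes was 159, 185 and 134 on day 3 and 40, 31 and 24 on day 6, which was 3.23 to 3.64 per 1000 peaks of a day 3 list and 1.37 to 1.78 per 1000 of a day 6 list. The genes are long, with a median of 43.3 kb against 17.3 kb for all protein-coding genes, and a longer gene holds more peaks. In lists of equal length the peaks numbered 51, 50 and 51 on day 3 and 30, 27 and 24 on day 6, and 9 genes had a lost region against 3.58% of all genes. These were Col1a2, Col6a1, Fbn1, Lox, Cdh11, Twist2, Zeb2, Runx1 and Runx2, and 1 gene, Col1a1, had a gained region (3.85%, near the 2.89% of all genes). The OKSM cassette sits in the Col1a1 locus.

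Among the matrix genes, the Col1a2 promoter region (chr6:4505107-4507578) had folds of 8.12, 7.49 and 7.12 in the day 3 libraries and no day 6 peak. It was called in both MEF libraries and in no day 9 or ESC library, and KLF4 was called there on day 3 and day 6 in all 4 libraries. The promoter region of Col6a1, a chain of type VI collagen, had folds of 3.95, 5.99 and 5.85 on day 3, with the same MEF-only history. A region in Cdh11, the mesenchymal cadherin (chr8:102783102-102785120), was among the stronger ones, with folds of 9.69, 7.32 and 8.73. A region in Lox, the enzyme that crosslinks collagen, had 8.10, 5.62 and 6.55 and was called again in both day 9 libraries. All 4 were without a day 6 peak and were also lost at equal list length.

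Among the mesenchymal transcription factors, the Zeb2 promoter region (chr2:45115555-45117646) had folds of 10.5, 5.65 and 4.88 on day 3. It was called in both day 9 libraries and in 1 ESC library, so it was without a call on day 6 but not afterwards. Twist2, a helix-loop-helix factor of mesenchyme, had 4.15, 4.32 and 4.88 at its promoter region, and Runx2, the osteoblast regulator, 3.36, 3.48 and 4.89. Neither was called on day 9. The Runx2 and S100a4 promoter regions were not lost at equal list length, where the lost Runx2 regions lay elsewhere in the gene. The promoter region of S100a4, a calcium-binding protein of fibroblasts, had 4.74, 4.01 and 2.91 and returned on day 9. Not every gene of the list behaved this way: at Vim, the intermediate filament gene of mesenchymal cells, the promoter had a peak in all 6 libraries, with folds of 14.6, 12.5 and 11.1 on day 3 and 6.24, 7.33 and 4.76 on day 6.

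Contractile genes showed a like count. Of 10 genes, 7 had a lost region (19 regions) and none a gained one, where 13% of all genes had a lost and 0.698% a gained region. A lost region stood within 1 kb of a start in Myl9, Tpm1, Tpm2 and Flna (4 of 8 with a start, against 3.58% of all). Of these, Myl9 alone had no promoter peak on day 6: Tpm1 and Flna had others in all 3 libraries, and Tpm2 had 1 in EA-3702. Peaks in these genes numbered 78, 83 and 63 on day 3 and 21, 16 and 10 on day 6. The Myl9 promoter region (myosin light chain) had folds of 4.21, 5.99 and 4.88 on day 3, and a region in Tgfb1i1 (Hic-5, a focal adhesion protein) had 6.83, 6.32 and 5.34. At equal list length these 2 genes had a lost and Tpm1 a gained region, with peak numbers of 20, 23 and 26 on day 3 and 11, 14 and 10 on day 6. Over all genes, 3.58% had a lost and 2.89% a gained region under that setting. The gained Tpm1 region was not one of its 2 lost regions.

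TGF-beta and YAP genes and AP-1 genes were less clear. In 6 of 14 TGF-beta and YAP genes there was a lost region (Amotl2, Ccn2, Smad3, Smad7, Tead1 and Tgfb3, 8 regions) and in none a gained one, beside 13% and 0.698% of all genes. At equal list length none of these 8 regions was lost. The list then had 1 other lost and 3 gained regions, all in Tead1, a partner of YAP, and peak numbers of 25, 29 and 30 against 32, 32 and 38. Of 10 AP-1 genes, Fosl2 and Jund had a lost region, which was close to the share of all genes, and 8 of 9 promoters were common, where 38.4% of all gene promoters were. Peaks at AP-1 genes numbered 20, 24 and 23 on day 3 and 20, 22 and 27 on day 6. For AP-1, the number of peaks overlapped between the days although the day 6 lists were shorter. No AP-1 gene had a lost region at equal list length, where the peaks numbered 13, 17 and 16 on day 3 and 17, 20 and 27 on day 6.

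**Figure D4:**
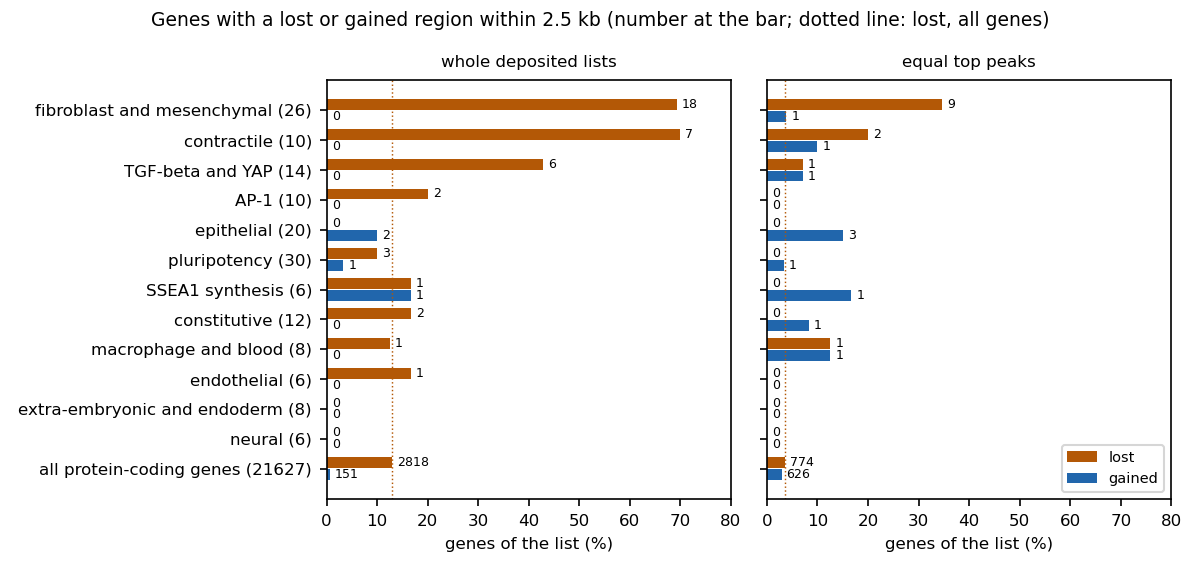
Percent of the genes of each list (horizontal axis, number of genes beside the list and at each bar) with a lost or a gained region within 2.5 kb, for whole lists (left) and the same number of top peaks (right); the dotted line is the lost share of all protein-coding genes. Lost regions reach 18 of 26 fibroblast and 7 of 10 contractile genes in whole lists and 9 and 2 of them at equal list length.

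Epithelial genes had no lost region and 2 gained ones. These were at Epcam and Lsr, 2 of the 13 promoters with a start (0.399% of all promoters were gained), and 0.698% of all protein-coding genes had a gained region. The Epcam region (chr17:87636524-87637299) had folds of 3.97, 5.23 and 3.28 in the day 6 libraries, no peak on day 3 or in MEFs, and peaks in both day 9 and both ESC libraries. KLF4 was called there on day 3 and day 6 in all 4 libraries, before the acetylation call. The Lsr region (chr7:30972827-30973934) had 4.72, 3.04 and 3.60, and KLF4 was called there in both day 6 and in no day 3 library. Both were gained at equal list length too, where a region in Cdh1, the epithelial cadherin, joined them. In whole lists Cdh1 had no gained region, with 4, 4 and 1 peaks on day 3 and 2, 1 and 1 on day 6. Its gain at equal list length therefore does not mean that Cdh1 was without peaks on day 3. That made 3 of 20 genes and 2 of 13 promoters, against 2.89% of all genes and 1.67% of all promoters with a gained region at that setting. Peaks in the 20 epithelial genes numbered 22, 24 and 15 on day 3 and 19, 12 and 9 on day 6. At equal list length they numbered 6, 7 and 8 and then 12, 7 and 9. The days overlapped under both settings, so the list as a whole showed no clear gain of peaks. Other epithelial promoters were patchy: Dsp (desmoplakin) had folds of 2.07 and 2.66 in 2 day 3 libraries and of 4.53, 2.79 and 4.58 on day 6, and Krt8 (keratin 8) had 3.76 and 2.61 in 2 day 3 libraries and no promoter peak on day 6.

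Of 30 pluripotency genes, 13 to 15 had any peak in each library. A lost region was found in 3 (10.0%, against 13% of all genes), namely Pou5f1, Tbx3 and Trim71, so the lost share was near that of all genes. A gained region was found in 1 (3.33%, against 0.698%), at Sall4, a zinc finger factor. The Sall4 region (chr2:168765334-168766576) had day 6 folds between 2.5 and 3.6, was called in both day 9 and both ESC libraries, and was not gained at equal list length. Peaks in pluripotency genes numbered 43, 59 and 46 on day 3 and 45, 38 and 41 on day 6, which was 0.920 to 1.16 per 1000 peaks of a day 3 list and 1.83 to 2.34 of a day 6 list. Genes used by every cell moved the same way per 1000 peaks, with 0.621 to 0.892 on day 3 and 1.16 to 1.71 on day 6, so a higher share of the list was not seen at pluripotency genes alone. In lists of equal length, pluripotency genes held 19, 20 and 18 peaks on day 3 and 34, 33 and 41 on day 6, and genes used by every cell 18, 23 and 21 and then 24, 27 and 30. The days did not overlap for either list, and the difference between the lists was not tested. Sox2 and Esrrb had no H3K27ac peak in any of the 6 libraries. The Nanog promoter had none on day 3, and folds of 3.38 and 2.95 in the DG-3458 day 6 libraries with none in EA-3702. Within 2.5 kb of the whole Nanog gene there were 0, 3 and 1 peaks on day 3 and 0, 1 and 1 on day 6.

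At Mycn, a proto-oncogene active in ESCs, the promoter fold was 2.37 in day 3 EA-3702, with no peak in the other day 3 libraries, and 7.37, 5.40 and 3.93 on day 6. It entered the gained class at equal list length, and was the only pluripotency gene to do so. That was 3.33% of the list, near the 2.89% of all genes with a gained region at that setting. The Pou5f1 promoter region (chr17:35505940-35506585) ran the other way, with folds of 6.33, 4.01 and 2.75 on day 3 and none on day 6. At equal list length no pluripotency gene had a lost region, so this loss and those at Tbx3 and Trim71 rested on the whole lists. It had no MEF peak and was called in both day 9 and both ESC libraries. The cassette carries copies of Pou5f1, Klf4, Sox2 and Myc, and reads from exons of a copy and of the endogenous gene cannot be told apart in a peak list. Among 6 genes for synthesis of the SSEA1 antigen, B4galt1, a galactosyltransferase, had 2 lost regions and Fut9, the fucosyltransferase that makes it in early mouse cells, had a gained region (chr4:25798878-25800253). Its day 6 folds were 6.19, 6.08 and 4.90, with no peak on day 3 or in MEFs, peaks in both day 9 and both ESC libraries, and no KLF4 in any of the 8 KLF4 libraries. Beside 13% and 0.698% of all genes, the lost count is near the share of all genes. Fut9 was also gained at equal list length, where neither B4galt1 region was lost. Fut4, a second enzyme of this kind, had promoter folds of 7.12, 4.99 and 4.88 on day 3 and of 2.83 and 2.62 in 2 day 6 libraries.

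Markers of other cell types differed in their number of peaks. In whole lists the 8 macrophage and blood genes held 9, 10 and 10 peaks on day 3 and 6, 3 and 6 on day 6. The 6 endothelial genes held 13, 15 and 11 and then 5, 3 and 1. At equal list length the macrophage and blood genes held 4, 3 and 5 and then 4, 3 and 6. The endothelial genes held 3, 4 and 3 and then 3, 3 and 1, so the days overlapped for both lists. The 8 extra-embryonic genes held at most 1 peak in a library, and the 6 neural genes held none. Lost regions stood at Spi1, a myeloid factor (1 of the 8 macrophage and blood genes), and at Erg, an endothelial factor (2 regions, 1 of the 6 genes), counts near the 13% of all genes, and in whole lists no gained region stood at any gene of these 4 lists. At equal list length Csf1r had a lost and Laptm5 a gained region, both macrophage genes, where 3.58% of all genes had a lost and 2.89% a gained region. The part of such cells in the lost class was not tested. Of 12 genes used by every cell, Gapdh and Ywhaz had a lost region, and 7 of 8 promoters were common, against 13% and 38.4% of all genes. None of the 12 had a lost region at equal list length, where Gapdh had a gained one at its promoter.

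The strongest lost regions lay away from promoters. A region 25415 bp from Amotl2, an angiomotin family regulator of YAP (chr9:102758833-102764577), ranked highest, with folds of 17.0, 17.2 and 12.2 on day 3. It was called in both MEF and both ESC libraries and KLF4 was called there on day 3 in both and on day 6 in neither library. A region 44040 bp from Adamts6, a metalloprotease of the matrix, had 12.4, 14.6 and 12.6, and another 32693 bp from Lbh, a transcription cofactor, had 16.0, 13.3 and 12.6. A pair of neighbouring regions within Fndc3b (chr3:27452539-27454446 and chr3:27454495-27456462) had 13.0, 11.8 and 11.4 and then 13.8, 11.5 and 10.4. Both were without a peak in MEFs and ESCs and held KLF4 in both day 3 and in no day 6 library. The first was called in 1 day 9 library and the second in none. Regions in Rhoj and near Tsc22d2 and Polr2m completed the 8. The gene named is the one overlapped or nearest and is not shown to be a target.

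The strongest gained regions were weaker. The first lay 19610 bp from Nrf1, a factor for nuclear genes of the mitochondrion, with folds of 8.88, 7.33 and 4.58 on day 6, and was called in both libraries of every other stage. The second lay 124496 bp from Med13l, a Mediator subunit (chr5:118434940-118435834), with 6.61, 5.40 and 6.03, no MEF peak, and KLF4 in all 8 libraries. Fut9 came next, followed by the Pnpla3 promoter region (5.48, 6.98 and 4.76) with no MEF peak and KLF4 in all 8 libraries. The others were at Ctxn1, Spag6l, Syt5 and Tcp11, all of which had MEF peaks. Of the 8 best gained regions, 5 were called in both MEF libraries and 3 in neither.

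Some genes gathered many lost regions. Dnm3, a dynamin, held 17, Fndc3b 14 and Myof, a membrane repair protein, 13, in genes 496, 295 and 145 kb long. Peaks in Myof numbered 27, 28 and 30 in the day 3 libraries and 1, 1 and 0 in the day 6 libraries. Aopep (16), Adamtsl1 (15) and Rad51b (15) were the others with most lost regions. On the gained side, Ccdc113, a cilium gene 24.8 kb long, held 3 gained regions, with 0 peaks in every day 3 library and 3, 4 and 5 on day 6. Gsx1, a homeobox gene, held 2, as did Fam222a, Magi1, Ptprh and Shank2. Magi1 held 3 lost regions as well, and Shank2 held 1. Spint1 also held 2 gained regions, so the choice of genes with most gained regions cut through a tie.

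Acetylation also changed in rank within the 9803 common regions, where a peak call exists in every library. Within each library the regions were ranked by the authors' fold, and the ranks were turned into normal scores, so that a shift of 1 is 1 SD of the regions. The limma test across all 9803 regions called 687 higher (7.01%) and 776 lower (7.92%) on day 6 at an adjusted p under 0.05, and the ranks of the 2 days did not overlap in 3232 (33%). Regions higher on day 6 were at a promoter in 75.9% of cases and lower ones in 44.0%, against 65.5% of all common regions. Higher regions had peaks in both ESC libraries in 96.7% of cases and lower ones in 80.8%, against 92.1% of all. The MEF values of higher and lower regions were 91.3% and 90.6%. The counts rested on single libraries: without day 3 DG-3458 library 1 or 2, 321 and 351 regions were higher and 384 and 409 lower, and without day 6 DG-3458 library 1 or 2, 372 and 353 were higher and 528 and 517 lower.

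Fibroblast, contractile and TGF-beta and YAP genes had lower, and no higher, calls among common regions. Of 10 fibroblast regions 3 were lower (median shift -0.80), of 8 contractile regions 2 (median -0.45), and of 14 TGF-beta and YAP regions 2 (median -0.48), beside 7.92% called lower and a median of 0.02 over all 9803. With 8 to 14 regions a list, a count of 2 lies close to that share. The fold of a region is that of its strongest peak. In a region that spans the promoter of Prrx1, a homeobox factor of limb mesenchyme (chr1:163307263-163315455), the folds were 19.8, 17.0 and 16.2 on day 3 and 4.28, 2.79 and 3.57 on day 6. The region went from percentiles 94.3, 94.9 and 91.8 to 19.1, 2.21 and 11.5, without overlap (shift -2.90 ± 0.33 SE, limma adjusted p = 7.52e-05). A second promoter region of Zeb2 (chr2:45108035-45111562), separate from the lost one, had folds of 17.6, 13.0 and 10.0 and then 3.59, 4.19 and 3.60 (shift -1.95 ± 0.34, limma adjusted p = 0.000755). KLF4 was called there in both day 3 and in no day 6 library. At Acta2, smooth muscle actin, the folds were 17.8, 9.89 and 11.6 and then 4.91, 3.49 and 3.28 (shift -1.92 ± 0.35, limma adjusted p = 0.00109).

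Thbs1 and Ccn1, matrix proteins induced by TGF-beta and YAP, fell too. Folds within Thbs1 were 13.9, 15.3 and 13.1 on day 3 and 3.59, 3.04 and 4.13 on day 6 (shift -2.30 ± 0.34, limma adjusted p = 0.000227). At the Ccn1 promoter they were 24.1, 17.1 and 19.7 and then 6.61, 6.63 and 7.51 (shift -1.47 ± 0.28, limma adjusted p = 0.00156). Neither gene's values overlapped between the days. The shift at Twist1, a mesenchymal helix-loop-helix factor, was -1.16 ± 0.36 (limma adjusted p = 0.0308), and it missed the threshold without any 1 of the 4 DG-3458 libraries (limma adjusted p 0.0629 to 0.209).

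**Figure D5:**
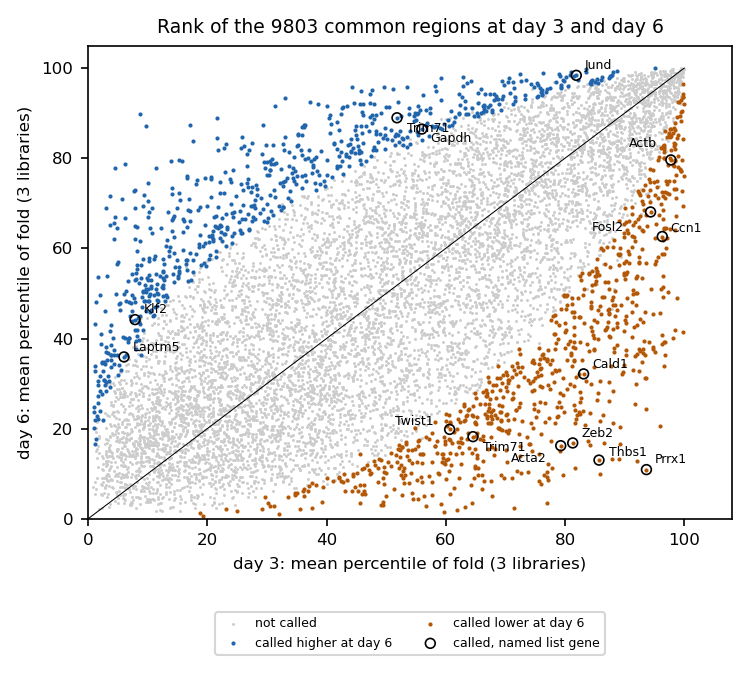
Mean within-library percentile of the authors' fold on day 3 (horizontal axis) and day 6 (vertical axis) for the 9803 common regions, with the 687 regions called higher and the 776 called lower on day 6 by limma in colour. Open circles mark called regions of 14 named list genes; Prrx1 lies at 93.7 on day 3 and 10.9 on day 6, and Klf2 at 7.89 and 44.2.

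Pluripotency genes had calls in both directions. Of 12 regions, 2 were higher and 1 lower, with a median shift of -0.39, counts near the 7.01% and 7.92% of all common regions. At the Klf2 promoter, a Krüppel-like factor of naive pluripotency, folds were 5.34, 3.33 and 2.33 on day 3 and 6.05, 4.88 and 5.56 on day 6 (shift 1.76 ± 0.48, limma adjusted p = 0.0174). This call was lost without day 3 DG-3458 library 2 (limma adjusted p = 0.117) and without day 6 DG-3458 library 2 (limma adjusted p = 0.0686). Trim71, a translational repressor controlled by let-7, held a promoter region that was higher (shift 1.27 ± 0.31, limma adjusted p = 0.00801) and a region in the gene body that was lower (shift -1.33 ± 0.35, limma adjusted p = 0.0141). Without day 3 DG-3458 library 2 these had limma adjusted p = 0.0554 and 0.117. The promoter folds were 9.88, 8.32 and 6.55 on day 3 and 14.5, 11.2 and 8.16 on day 6, and those of the gene body 8.97, 8.32 and 12.7 and then 3.94, 4.19 and 3.60.

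Among other lists, AP-1 genes had 1 higher (Jund, shift 1.22) and 1 lower region (Fosl2, shift -1.16) of 11, both lost as calls without day 3 DG-3458 library 1 (limma adjusted p = 0.0561 and 0.0648). Genes used by every cell also had 1 higher (Gapdh, shift 0.95) and 1 lower (Actb, shift -1.30) of 13, so such genes were not fixed in rank. The macrophage gene Laptm5 was higher (shift 1.27) and missed the threshold without any 1 of the 6 libraries (limma adjusted p 0.0668 to 0.122). Gapdh missed it without day 3 DG-3458 library 1 or 2 or day 6 DG-3458 library 2 (limma adjusted p 0.0706 to 0.0807).

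Outside the lists, the most shifted regions named other genes. The region at the promoter of Ralgds, an activator of Ral GTPases, had folds of 5.14, 2.68 and 3.90 on day 3 and 12.7, 9.07 and 11.1 on day 6, and rose from percentiles 17.3, 1.13 and 7.53 to 89.9, 85.7 and 93.6 (shift 2.84 ± 0.36, limma adjusted p = 0.000115). The regions next in shift were at Syngr1 (2.79), Slc17a5 (2.58), Nemp2 (2.57), Ankrd6 (2.52), Rnf220 (2.5), Plch1 (2.47) and Socs2, a feedback inhibitor of cytokine signalling (2.41). The region spanning the promoter of Mmp28, a matrix metalloprotease, had the lowest shift, with folds of 32.4, 31.3 and 29.4 on day 3 and 10.8, 4.39 and 3.57 on day 6 (shift -3.16 ± 0.38, limma adjusted p = 7.52e-05). Its percentiles went from 99.6, 99.9 and 99.8 to 82.6, 30.3 and 11.5, so in day 6 EA-3702 it still ranked high. After Prrx1 came Rusc2 (-2.83), Plekho2 (-2.71), Flii (-2.66), Stk4 (-2.61), the chemokine gene Ccl7 (-2.61) and Csrp1 (-2.56). Ralgds and Mmp28 had KLF4 peaks in both libraries of day 3 and of day 6.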

How the data were processed

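ChIP-seq peaks of H3K27ac (12 libraries) and KLF4 (8 of 10) were analysed as the authors deposited them, 1 list per library in mm10 with no read counts. The submitters' processing notes name cutadapt 1.8.1, Bowtie2 2.2.5, deepTools 2.3.6 and MACS2 2.1.1 with no role given. Every deposited peak has −log10 values of p and q, a score and a fold (a ratio over background), all set by the authors and comparable only within a list. All 6 lists end near a −log10 p of 2.00, so the authors' threshold was lenient. The depth is unknown, and a shallower or noisier library yields fewer peaks.

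The 6 lists were merged with 1 bp of overlap. Regions of another stage were those with a peak in both of its libraries. Other stages were matched to regions by 1 bp, and a 1 Mb shift gave the chance level. Genes (21627 protein-coding) came from RefSeq GRCm38.p6, and starts were available for 17273 genes, none on chromosome 18, which was left out of start-based measures. The input libraries have no list here. Of the 156 listed genes, 103 had a start. Regions were named by the gene overlapped or nearest, since starts were incomplete.

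Shares were tested with exact permutation tests in Python 3.11.15 (scipy 1.17.1). Ranks were tested with limma 3.58.1 in R 4.3.3, with Benjamini-Hochberg adjustment at 0.05. The classes were tested on simulated lists and all were recovered. No peak of a class was missing from those lists, so this checked the merging and not the effect of depth or of missed peaks. Of 100 simulated shifts of 2 units in the 9803 regions the rank test recovered 92, and of 100 shifts of 1 unit 15. The rank test made 8 false calls in this simulation. No 2 lists shared more than 3 identical intervals. In the DG-3458 day 6 files the numbers in the peak names are exchanged against the titles, and titles were used.

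Named regions were the 8 lost, 8 gained and 4 common regions with the best mean score percentile, the 6 genes with most lost and most gained regions, the 8 most shifted common regions each way, and list genes with a lost or gained promoter. The rank shift of 1 listed gene is not reported here. The members, lists and rules were chosen with earlier results of these data known. Alternatives were equal list length, the top 50% of each list, a q-value of 0.01, presence in 2 of 3 libraries, each batch alone, a replicate block and leaving out each library.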

Additional observations from a re-analysis of the deposited data

How the results depend on the processing

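Outside the settings that left out 1 library, 75 alternative values of 26 results were computed: 49 stayed close to or on the same side as the reported value, 23 moved and 3 reversed. With the same number of top peaks, the difference of day 6 minus day 3 reversed for the median peak width (-346 bp), the share in MEF regions (-2.77 points) and the share at day 3 KLF4 sites (-3.80 points). That setting also gave 1454 lost and 661 gained regions, 147 genes with a lost and 289 with a gained promoter, 10.3% of lost and 68.3% of common regions at promoters, and MEF, day 9 and ESC peaks at 76.3%, 54.0% and 32.0% of lost and 62.0%, 100.0% and 81.8% of gained regions. Lost, gained and common counts were 4164, 57 and 5985 with the top 50% of each list, 14709, 673 and 12739 with 2 of 3 libraries, 13410, 575 and 10750 in DG-3458 alone, 28735, 3669 and 16588 in EA-3702 alone, and 4935, 91 and 7420 at a q-value of 0.01. Lost regions outnumbered gained regions in all of these. Genes with a lost promoter region outnumbered those with a gained one in whole lists (618 against 69), and the order turned at equal list length. A 50% overlap changes nothing by construction, since each peak lies whole within its merged region. The cause of the other moves was not tested.

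Leaving out 1 library at a time gave 7222 to 11240 lost, 217 to 432 gained and 9958 to 11051 common regions. Lost regions then had peaks in MEFs in 61.4% to 67.7%, on day 9 in 36.7% to 51.7% and in ESCs in 27.2% to 34.3%, and gained regions in 31.0% to 51.7%, 98.0% to 99.6% and 62.8% to 77.1%. The KLF4 change was -18.8 to -13.6 points at lost and 9.62 to 16.9 points at gained regions, and the promoter percent 8.13 to 10.7 for lost, 23.9 to 40.9 for gained and 61.4 to 65.5 for common regions. The differences in library shares ranged from 19.6 to 26.6 points (promoters), 35.5 to 40.0 (day 9), 9.55 to 17.0 (MEF), 27.7 to 34.1 (ESC), 13.3 to 15.8 and 15.6 to 17.9 (KLF4 sites of day 3 and day 6), and in median width from -69 to 76 bp. The rank test called 321 to 688 regions higher and 384 to 871 lower.

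The deviations of same-numbered libraries of the 2 days over the common regions had correlations of 0.0481, 0.0339 and 0.0238. All lie under 0.1, so the numbers were not taken to pair the libraries. Every library correlated best with its own number, which is a hint from the data and not from the design. With the replicate block, 787 regions were higher and 879 lower, and 1458 of 1463 calls were shared. With the day 6 numbers exchanged, an alternative chosen after seeing the peak names, the block gave 746 and 834. Under the replicate block the smallest exact p of a share was 0.25. The authors' score in place of the fold gave 895 and 963, a batch term 787 and 869, and centred log2 folds 777 and 896. Of the named common regions, 22 of 31 were called under every alternative, and none reversed.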
